A study of Homo sapiens with 9 samples.

Results

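The count table of these A2780 libraries held 4568 rows named newGene, transcribed loci that carry a running number in place of a gene identifier. The loci described here are the 2206 of them with 10 or more raw counts in at least 3 of the 9 libraries, out of 24542 rows in all. The other 19974 rows carried Ensembl gene identifiers. A2780 is a cell line derived from a human ovarian carcinoma. Its genotype is given as WT, and all 9 samples were treated for 96 h. There were 3 libraries with 0.5% DMSO (the untreated group), 3 with 0.6 µM cisplatin (written Cispt in the labels) and 3 with 5.5 µM Pt-ttpy. A percentage of DMSO is recorded for the controls only. The doses of the drugs differ, and the labels give each as the IC80 of that drug. Cisplatin crosslinks DNA. Pt-ttpy, by the title of the series, is a complex of platinum that binds G-quadruplexes, which are folded forms of guanine-rich DNA or RNA. The labels call the libraries biological replicates and say no more, so where these were not separate cultures the p-values measure only the spread between these samples.

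A locus outside the annotation appears when reads are assembled into transcripts and some of these match no annotated gene. Such loci can be long noncoding RNAs, RNA that runs past the end of a known gene, RNA from introns or from the strand opposite a gene, transcribed repeats, or coding genes that an annotation lacks. How the submitters found these loci is not given in the sources used here, and the table gives a locus no position, strand, length or sequence. Nothing can therefore be said here of what any single locus is, and levels of different loci cannot be compared per length. The prefix Homo_sapiens is left out of the names below.

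What the Ensembl rows cover bears on what newGene can mean. All 19974 were in GENCODE 29, 19922 of them as protein-coding genes and 52 under other types. Of the 15006 long noncoding genes of GENCODE 29, 0 had a row of their own. The same held for 24 well known long noncoding RNAs that were looked for, among them MALAT1 and NEAT1, both abundant RNAs of the nucleus, GAS5, a host of small nucleolar RNAs, and MIR34AHG, the host transcript of the p53-induced microRNA miR-34a. The name newGene thus says that a locus lay outside a set made almost wholly of protein-coding genes, not that it is unknown to every annotation. Whether any newGene locus is one of these RNAs was not tested.

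Library totals lay between 31264474 (cisplatin 1) and 40826035 counts (DMSO 3). DMSO 2 and cisplatin 2 stood apart from the other libraries of their groups. Over all rows tested, their counts differed from those of a group mate with a chi-square per degree of freedom of 71.7 to 126, against 9.21 to 29.4 for the other pairs of replicates. Results that change without these libraries are therefore also given without them. Markers that define epithelial cells were low, with 0 of 6 at a median of 1 CPM (counts scaled to the size of the library) or more. Their summed level was 0.0499 to 0.506 CPM with DMSO, 1.54 to 3.41 with cisplatin and 0.554 to 0.986 with Pt-ttpy. In contrast, 6 of 6 fibroblast-type matrix and surface genes reached it. The summed level of those 6 was 1004 to 1082 CPM with DMSO, 1596 to 1863 with cisplatin and 1664 to 1735 with Pt-ttpy. Neither sum overlapped between DMSO and either drug, and both were higher with the drugs. Their part in the changes of the loci was not tested. Of the blood and vessel markers only CD68 reached 1 CPM, and the summed levels of the 3 erythroid and 3 endothelial markers stayed under 0.25 CPM. In bulk RNA, fewer cells of a kind and less RNA per cell cannot be told apart.

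Most of the 2206 loci were weakly covered, and a few held a large part of the counts. The median locus had a mean of 1.16 CPM over the 9 libraries, the quartiles were 0.436 and 4.18 CPM, and 45.6% were under 1 CPM. Of the Ensembl rows tested, 9.52% were under 1 CPM and the median was 32.4 CPM. There were 299 loci at 10 CPM or more and 19 at 100 or more. A count of 10 or more was reached in all 9 libraries by 1353 loci, and 336 had 0 counts in at least 1 library. The rule could be met by a single group. There were 8 loci with 10 or more counts in the 3 cisplatin libraries and in no other, 1 such locus for Pt-ttpy and 1 for DMSO. Loci with a further library at 10 or more can also depend on a single group, and these were not counted. At the edge of the rule, the 89 loci that met it with exactly 10 counts in the deciding library had totals of 36 to 96 counts over all libraries, and the 83 loci just outside, which had 9 counts there, had totals of 33 to 98. Loci with 0 counts in a whole group were rare. There were 7 such loci in the DMSO group, 1 in the cisplatin group and 2 in the Pt-ttpy group, and 0 loci were at 0 in all DMSO libraries and at 10 or more in all 6 treated ones. All but these 7 loci had at least 1 count with DMSO.

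The loci together held a small share of each library, somewhat larger on average with either drug than with DMSO. The share was 1.94%, 1.55% and 1.66% in DMSO 1, 2 and 3, then 2.17%, 2.07% and 1.87% in cisplatin 1, 2 and 3, and 1.95%, 1.95% and 1.72% in Pt-ttpy 1, 2 and 3. The exact binomial 95% interval of each share was narrow (1.94% to 1.95% for DMSO 1), so counting error is small beside the spread between replicates. Such intervals cover counting error only. The means were 1.72 ± 0.2% with DMSO, 2.03 ± 0.154% with cisplatin and 1.87 ± 0.137% with Pt-ttpy (SD, n = 3 each). DMSO 1 reached into the range of both drugs, so the groups overlapped. The difference from DMSO was 0.313 percentage points for cisplatin (two-sided exact permutation test, p = 0.2, adjusted 0.3) and 0.154 for Pt-ttpy (exact permutation p = 0.2, adjusted 0.3). With 3 libraries against 3 this test cannot go below 0.1.

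**Figure D1:**
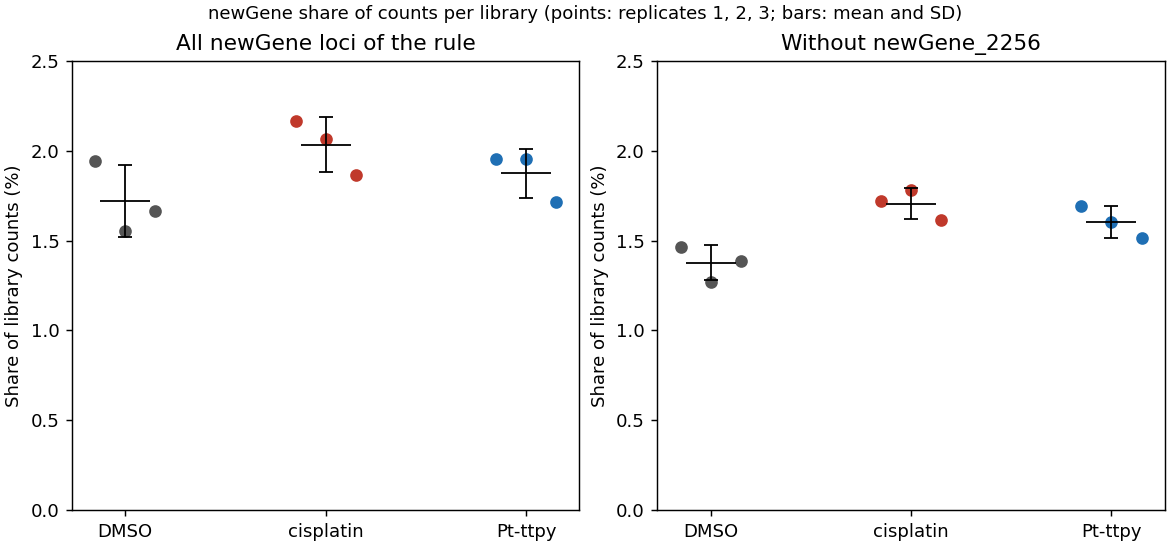
Share of each library's counts (percent, axis from 0) that fell on the 2206 newGene loci, left, and on the loci without newGene_2256, right. Points are the 3 libraries of a group and bars the mean and SD. With all loci DMSO 1, at 1.94%, overlaps the treated libraries, and without newGene_2256 the 3 DMSO libraries lie below the 6 treated ones.

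The overlap was gone when a single locus was left out. newGene_2256 alone held between 11.8% (Pt-ttpy 3) and 24.9% (DMSO 1) of the counts of all 2206 loci, and the 10 loci with the most counts held 30.1% to 46.2%. Without it the share was 1.47%, 1.27% and 1.39% in DMSO 1, 2 and 3, 1.72%, 1.78% and 1.61% with cisplatin and 1.7%, 1.6% and 1.52% with Pt-ttpy. All 6 treated libraries were then above all 3 DMSO libraries (exact permutation p = 0.1 for either drug, the smallest possible, adjusted 0.15). The mean difference from DMSO was 0.329 percentage points for cisplatin and 0.228 for Pt-ttpy. Leaving this locus out was decided after its size had been seen.

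The 5 loci with the most counts were newGene_2256, newGene_2253, newGene_6190, newGene_2257 and newGene_8631. newGene_2256 stood at 4949, 3050 and 2835 CPM in DMSO 1, 2 and 3, at 4602, 2691 and 2526 CPM with cisplatin and at 2625, 3526 and 2008 CPM with Pt-ttpy. The groups overlapped, and neither drug changed it past the threshold by edgeR's quasi-likelihood test. Its log2 difference from DMSO was −0.41 (SE 0.29, adjusted p = 0.378) with Pt-ttpy and −0.14 (SE 0.29, adjusted p = 0.765) with cisplatin. newGene_2253 stood at 1207, 750 and 746 CPM with DMSO, at 842, 694 and 633 CPM with cisplatin and at 428, 773 and 480 CPM with Pt-ttpy. newGene_2257 stood at 835, 571 and 577 CPM with DMSO, at 646, 522 and 539 CPM with cisplatin and at 406, 597 and 459 CPM with Pt-ttpy. These 3 loci, whose numbers lie within 4 of each other, were each highest in DMSO 1, cisplatin 1 and Pt-ttpy 2 of their groups. None was called against DMSO, with log2 differences of −0.68 (SE 0.24, adjusted p = 0.0802) for newGene_2253 and −0.44 (SE 0.17, adjusted p = 0.112) for newGene_2257 under Pt-ttpy. DESeq2's Wald test gave newGene_2253 an adjusted p of 0.0193.

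newGene_6190 and newGene_6191 carry neighbouring numbers but did not show the same pattern. newGene_6190 stayed within 540.5 to 713 CPM in all 9 libraries, at 652, 573 and 588 with DMSO, 611, 646 and 713 with cisplatin and 708, 649 and 540.5 with Pt-ttpy. Its log2 difference from DMSO was 0.07 with Pt-ttpy (SE 0.11, adjusted p = 0.739) and 0.12 with cisplatin (SE 0.11, adjusted p = 0.483). newGene_6191 stood at 1.88, 11.3 and 12.6 CPM with DMSO, at 98.8, 146 and 32 CPM with cisplatin and at 75.3, 140 and 194 CPM with Pt-ttpy. Every treated library was above every DMSO library, though libraries of 1 group differed from each other several fold. It had the largest rise with Pt-ttpy among the 132 loci eligible to be named (called, at 1 CPM or more in the higher group, with no overlap between groups). The log2 change was 3.99 (SE 0.88, adjusted p = 0.0348) with Pt-ttpy and 3.42 (SE 0.86, adjusted p = 0.0358) with cisplatin. These calls were fragile. For Pt-ttpy the adjusted p passed 0.05 without DMSO 2 (0.0738), DMSO 3 (0.0735), cisplatin 1 (0.0616) or Pt-ttpy 1, 2 or 3 (0.0764, 0.105 and 0.0962), and with the replicate number as a block (0.06). For cisplatin it passed 0.05 without DMSO 2 (0.0653), DMSO 3 (0.0752), cisplatin 1 (0.0749), cisplatin 2 (0.0923), Pt-ttpy 2 (0.0647) or Pt-ttpy 3 (0.0547), and with the block (0.0652). Without both DMSO 2 and cisplatin 2 it was 0.0509 for Pt-ttpy and 0.116 for cisplatin.

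The design set out to find the genes that Pt-ttpy targets, by comparing it with DMSO. More loci rose than fell. Of the 2206 loci, 2167 had enough counts to be tested, along with 13383 Ensembl rows and 8 newGene rows outside the rule. Of these, 151 (6.97%) were called higher at an adjusted p under 0.05, against a background of 5.59% over all 15558 rows, and 9 (0.415%) were called lower, against 6.45%. The share called higher is near the background, and the share called lower is well under it. The called rises ran from 0.41 to 6.46 on the log2 scale with a median of 1.23, and 100 were at least 2-fold (4.61% of the loci, background 2.19%). The called falls had a median of −1.16, and 5 were at least 2-fold (0.231%, background 0.212%). The fitted change was above 0 in 1571 loci (72.5%, background 53.1%). In 559 loci (25.8%, background 20.3%) all 3 Pt-ttpy libraries were above all 3 DMSO libraries, and in 95 (4.38%, background 20.6%) all were below. Over the 2167 loci the median log2 change was 0.34, with quartiles of −0.05 and 0.79, and over all rows it was 0.03. The number of rises depended on the libraries: 35, 33 and 52 without Pt-ttpy 1, 2 and 3, 90 and 96 without DMSO 2 and DMSO 3, and 283 without both DMSO 2 and cisplatin 2, with 24 falls in that last fit. For alternative fits, here and below, the share called over all rows is not given, so their counts have no background beside them.

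newGene_2437 had the second largest rise with Pt-ttpy among loci eligible to be named. Its counts were 3, 5 and 10 in DMSO 1, 2 and 3, or 0.0844, 0.143 and 0.25 CPM. They were 64, 42 and 36 with Pt-ttpy (1.97, 1.18 and 1.07 CPM) and 172, 259 and 180 with cisplatin (5.54, 6.13 and 5.33 CPM). The groups did not overlap, with Pt-ttpy in between. The log2 change against DMSO was 3.09 with Pt-ttpy (SE 0.41, adjusted p = 0.00292), and the call held in all 9 fits without 1 library (highest adjusted p = 0.0141).

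Falls with Pt-ttpy were led by newGene_2670 and newGene_2798 among the 8 eligible loci. newGene_2798 stood at 11.3, 11.7 and 8.88 CPM with DMSO, at 4.61, 3.83 and 4.27 CPM with Pt-ttpy and at 4.44, 2.72 and 4.44 CPM with cisplatin. All treated libraries were below all DMSO libraries. It fell by 1.33 on the log2 scale with Pt-ttpy (SE 0.23, adjusted p = 0.00838; 0.0542 without Pt-ttpy 2) and fell by 1.46 with cisplatin (SE 0.23, adjusted p = 0.0023). newGene_2670 had counts of 53, 53 and 81 with DMSO, 19, 9 and 29 with Pt-ttpy and 44, 98 and 37 with cisplatin. With Pt-ttpy all libraries were below DMSO, while the cisplatin libraries spanned the DMSO range. Its log2 change was −1.57 with Pt-ttpy (SE 0.47, adjusted p = 0.0491) and −0.05 with cisplatin (SE 0.44, adjusted p = 0.946). The difference between the drugs was not called (−1.51, SE 0.47, adjusted p = 0.305). The Pt-ttpy call held only without cisplatin 2 among the 9 fits that leave out 1 library. It was 0.0689, 0.0827 and 0.123 without DMSO 1, 2 and 3, 0.0633 and 0.0544 without cisplatin 1 and 3, and 0.131, 0.158 and 0.0677 without Pt-ttpy 1, 2 and 3.

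**Figure D2:**
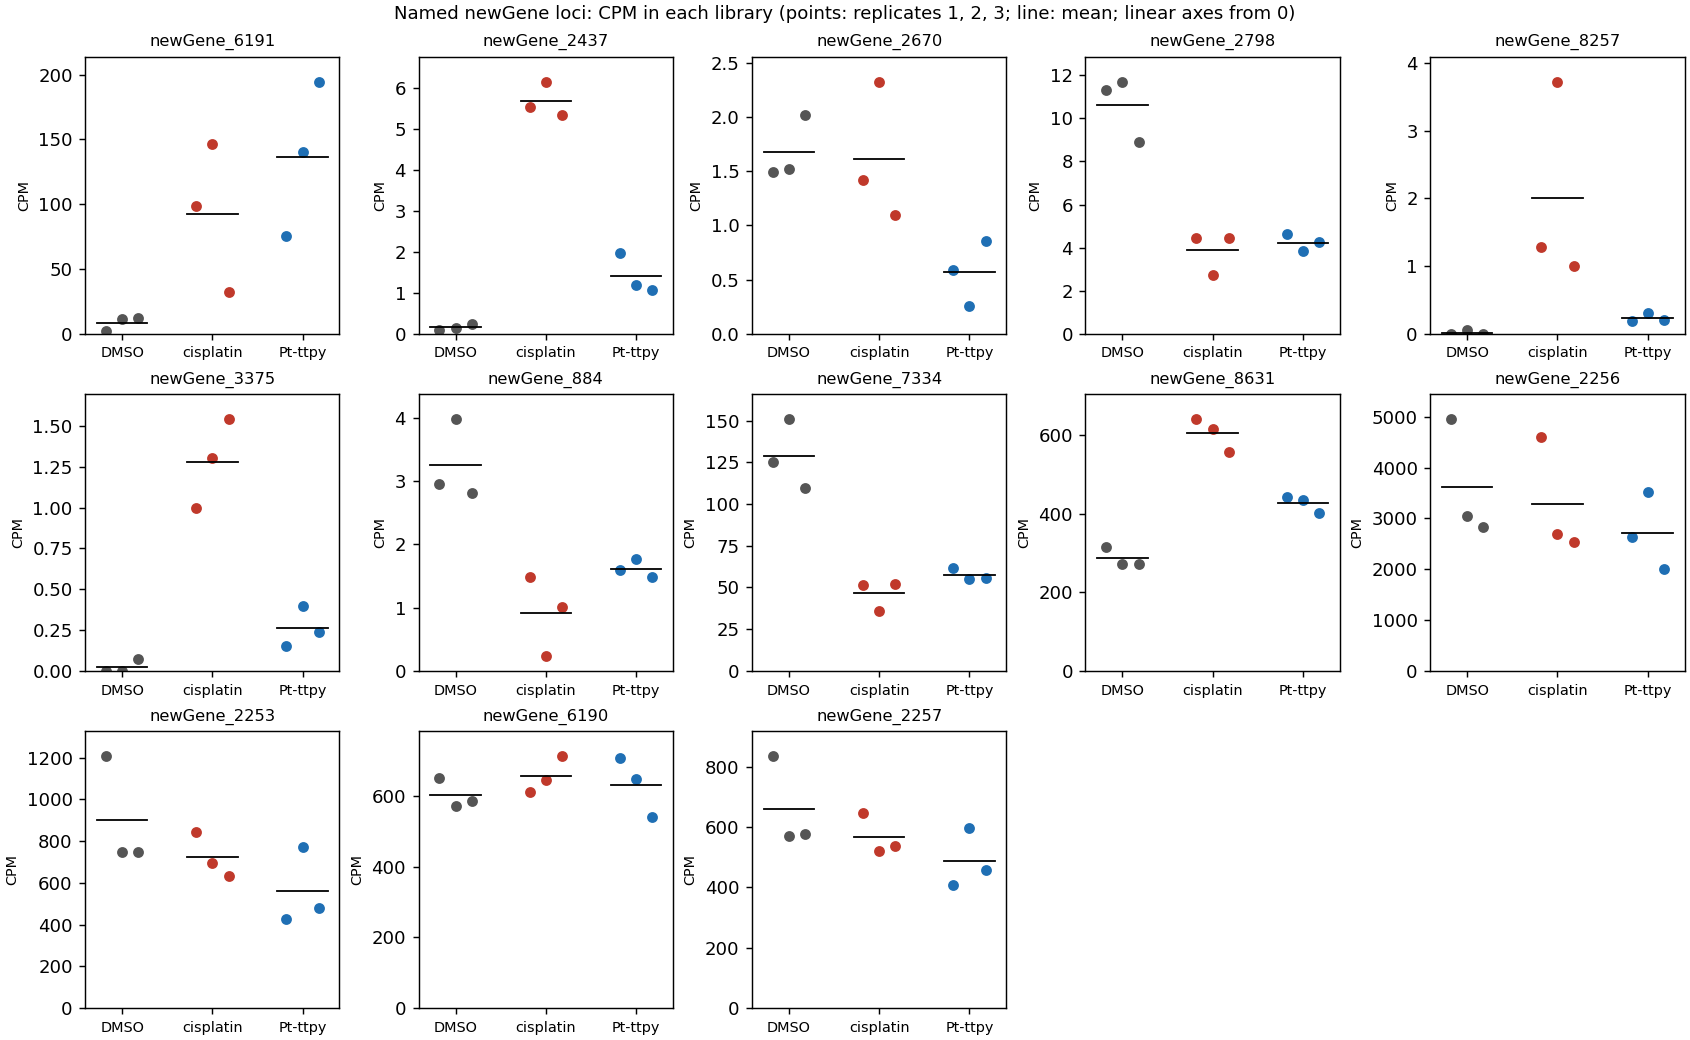
Level (CPM, linear axes from 0) of the 13 named loci in each library, with points for replicates 1, 2 and 3 of each group from left to right and a line at the mean. newGene_2437, newGene_8257 and newGene_3375 lie lowest with DMSO and highest with cisplatin, newGene_2798, newGene_884 and newGene_7334 are lower with either drug, and newGene_2256, newGene_2253, newGene_6190 and newGene_2257 overlap between groups.

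Cisplatin against DMSO, the comparison drug against the same controls, also gave more rises than falls. Of the 2167 loci 284 (13.1%) were called higher, against a background of 10.7%, and 14 (0.646%) lower, against 9.78%. The rises ran from 0.38 to 7.66 on the log2 scale with a median of 1.38, and 191 (8.81%, background 5.32%) were at least 2-fold. Among Ensembl rows weighted to the levels of the loci, as set out below, 11% were called at least 2-fold higher. The falls ran from −1.86 to −0.37, and 5 were at least 2-fold (0.231%, background 0.321%). The fitted change was above 0 in 1624 loci (74.9%, background 51.1%). In 632 loci (29.2%, background 18.6%) all cisplatin libraries were above all DMSO libraries and in 90 (4.15%, background 19.4%) all were below. The median log2 change of the loci was 0.42, with quartiles of 0.00 and 0.96, against 0.01 over all rows. Rises numbered 186 without DMSO 3, 178 without cisplatin 2, 164 with only the 6 libraries compared and 257 without both DMSO 2 and cisplatin 2.

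The largest rises with cisplatin among the 255 eligible loci were in loci with almost no counts under DMSO. newGene_8257 had 0, 2 and 0 counts in DMSO 1, 2 and 3, 40, 157 and 34 with cisplatin and 6, 11 and 7 with Pt-ttpy. The ratio of summed counts, scaled to library size, was 119 for cisplatin over DMSO (95% counting interval 32.7 to 991) and 13 for Pt-ttpy (3.24 to 114). newGene_3375 had 0, 0 and 3 counts with DMSO, 31, 55 and 52 with cisplatin and 5, 14 and 8 with Pt-ttpy. Its ratios were 47.5 for cisplatin (15.9 to 233) and 9.78 for Pt-ttpy (3.01 to 50.4). Both loci had 10 or more counts in the 3 cisplatin libraries and in Pt-ttpy 2 only. Without the cisplatin libraries, the group where they are highest, they would not have met the rule. The rule thus had a part in choosing them, so their cisplatin ratios and calls are descriptive and no independent support for a rise. In both loci all libraries of each drug were above DMSO and the cisplatin libraries were above the Pt-ttpy ones. The cisplatin calls, adjusted p = 0.00135 for newGene_8257 and 0.00282 for newGene_3375, held in all 9 fits without 1 library. The Pt-ttpy calls did not (0.0489 and 0.0476, with up to 0.144 and 0.167). That of newGene_8257 was lost without any of 7 libraries, keeping it only without DMSO 2 or cisplatin 2, and that of newGene_3375 likewise, keeping it only without DMSO 3 or cisplatin 2. The difference between the drugs had an adjusted p of 0.0973 for newGene_8257 and 0.28 for newGene_3375, so it was not called in either by this test. For newGene_8257 DESeq2's Wald test gave 0.00155 and the fit with the replicate number as a block 0.0465.

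Among the 14 eligible falls with cisplatin, newGene_884 and newGene_7334 fell most. newGene_7334 is well covered, at 125, 151 and 110 CPM with DMSO, 51.7, 35.7 and 52.3 CPM with cisplatin and 61.7, 54.9 and 56 CPM with Pt-ttpy. All treated libraries were below all DMSO libraries. It fell by 1.47 on the log2 scale with cisplatin (SE 0.16, adjusted p = 0.000255) and fell by 1.16 with Pt-ttpy (SE 0.16, adjusted p = 0.00351), and both calls held in all 9 fits without 1 library. newGene_884 had counts of 105, 139 and 113 with DMSO, 46, 10 and 34 with cisplatin and 52, 63 and 50 with Pt-ttpy. All treated libraries were below DMSO. It fell by 1.86 with cisplatin (SE 0.49, adjusted p = 0.0213; 0.0602 without DMSO 2) and was not called with Pt-ttpy (adjusted p = 0.175), though it was called lower without cisplatin 2 (0.0246). Its direct difference between the drugs was 0.85 (SE 0.49, adjusted p = 0.716).

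**Figure D3:**
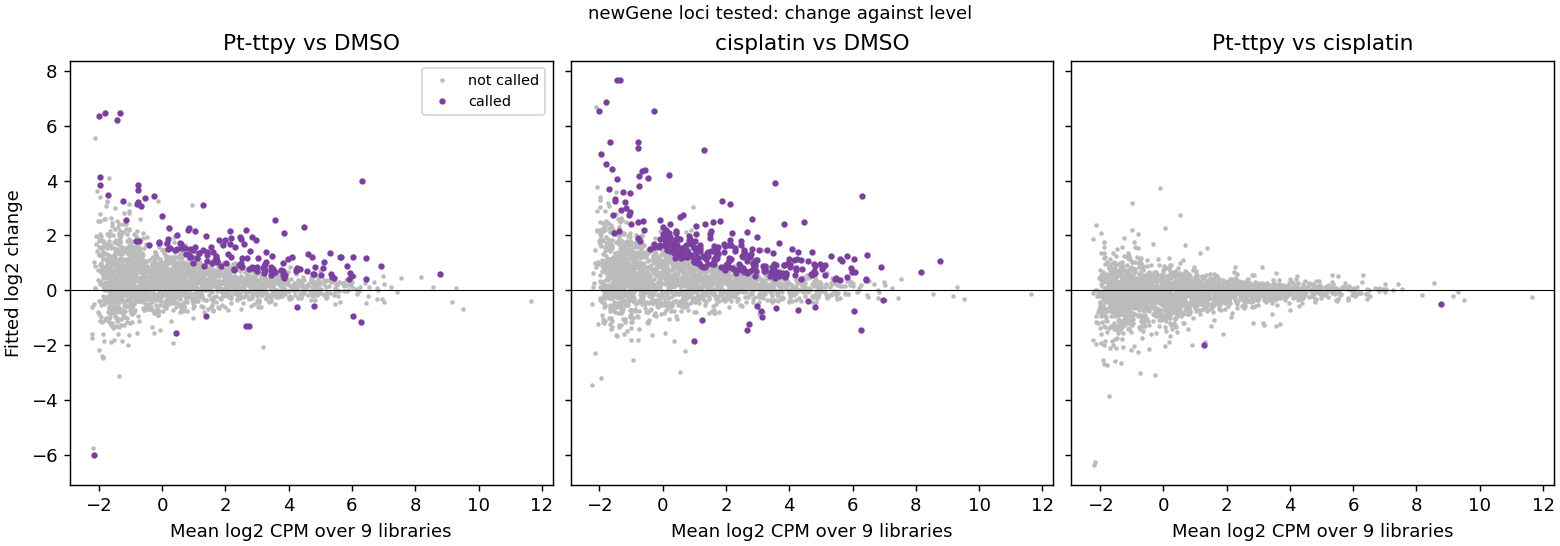
Fitted log2 change of the 2167 tested newGene loci against their mean level (log2 CPM over 9 libraries) in the 3 comparisons, with called loci (adjusted p under 0.05) in colour. Called loci lie mostly above 0 against DMSO, 151 to 9 for Pt-ttpy and 284 to 14 for cisplatin, and only 2 are called between the drugs. The widest fitted changes belong to the loci with the fewest counts and depend on the prior count.

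The direct comparison of the drugs called 2 of the 2167 loci, both lower with Pt-ttpy (0.0923%, background 0.456%), and 0 higher (background 0.0578%). At an unadjusted p under 0.05 there were 87 loci lower with Pt-ttpy (4.01%, background 5.14%) and 21 higher (0.969%, background 2.92%), by edgeR's quasi-likelihood test. DESeq2's Wald test called 14 lower and 2 higher, and limma-voom 3 and 0. Without both DMSO 2 and cisplatin 2 there were 14 lower and 5 higher. With the replicate number as a block there were 7 and 0. The fitted difference was above 0 in 901 loci (41.6%, background 50.8%). All Pt-ttpy libraries were above all cisplatin libraries in 88 loci (4.06%, background 10.5%) and below them in 180 (8.31%, background 10.1%). The median log2 difference over the loci was −0.09, against 0.00 over all rows. Ensembl rows weighted to the levels of the loci, as set out below, had a median of −0.13. Their share above 0, weighted likewise, was 41.4%. By these values the loci leaned no lower than Ensembl rows of like level. The called loci were newGene_2437 (−2.01, SE 0.33, adjusted p = 0.0241) and newGene_8631 (−0.50, SE 0.10, adjusted p = 0.0458). newGene_8631 stood at 315, 272 and 272 CPM with DMSO, at 441, 434 and 402 CPM with Pt-ttpy and at 639, 614 and 556 CPM with cisplatin. The groups lay apart, with little spread inside each. Against DMSO it rose by 0.57 on the log2 scale with Pt-ttpy (SE 0.10, adjusted p = 0.00831; 0.0508 without Pt-ttpy 2) and by 1.08 with cisplatin (SE 0.10, adjusted p = 6.24e-05). Both calls between the drugs were lost when any 1 of the 6 libraries compared was left out. That of newGene_2437 was lost without cisplatin 1, 2 or 3 (0.0816, 0.0598 and 0.0522) or Pt-ttpy 1, 2 or 3 (0.0501, 0.148 and 0.149). That of newGene_8631 was lost without cisplatin 1, 2 or 3 (0.186, 0.0762 and 0.0586), Pt-ttpy 1, 2 or 3 (0.194, 0.244 and 0.304) or DMSO 3 (0.0848). Both comparisons with DMSO share the DMSO libraries, so their values are only set side by side. The 151 loci called higher with Pt-ttpy had a median log2 change of 1.23 with Pt-ttpy and 1.26 with cisplatin. The 284 called higher with cisplatin had 0.99 with Pt-ttpy and 1.38 with cisplatin. The first value of the 151 and the last of the 284 were used to choose the loci.

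Median log2 changes against DMSO were higher in rows with few counts than in rows with many, for loci and Ensembl rows both, so the loci were set beside Ensembl rows of like expression. Rows were put in classes 1 unit wide of mean log2 CPM over the 9 libraries, which is not corrected for length, and all Ensembl rows of a class were used. This comparison is a description with no test. In the weakest class, below −1, the median log2 change with Pt-ttpy was 0.50 for 527 loci and 0.33 for 633 Ensembl rows. In the class from 1 to 2 it was 0.37 for 262 loci and 0.31 for 668 Ensembl rows. The median of the loci was above that of the Ensembl rows in each class, and the quartiles overlapped widely. Weighted to the classes of the loci, the Ensembl rows had a median of 0.26 with Pt-ttpy against 0.34 for the loci, and 0.36 with cisplatin against 0.42. Most of the gap between the median of the loci and that of all rows was thus also seen in Ensembl rows of like level. The remaining difference with cisplatin, with all rows at 4 and above as 1 class, was 0.06. It was 0.002 without DMSO 1 and 0.005 without cisplatin 1. With Pt-ttpy it was 0.08, and 0.16 with no filter. The weighted share of Ensembl rows called higher was 5.06% with Pt-ttpy (6.97% of loci) and 13.4% with cisplatin (13.1% of loci). The weighted share called lower was 1.55% (0.415% of loci) and 2.62% (0.646% of loci). With 1 class at 4 and above, 3.67% of Ensembl rows were called at least 2-fold higher with Pt-ttpy (4.61% of loci). With cisplatin it was 11% (8.81% of loci). Changes above 0 made up 64.6% (72.5% of loci) and 66.6% (74.9% of loci). Rows with all treated libraries above DMSO made up 20.8% (25.8% of loci) and 25% (29.2% of loci). Those with all below made up 9.06% (4.38% of loci) and 8.04% (4.15% of loci). With cisplatin the share called higher was smaller for loci than for Ensembl rows below −1 (4.17% against 6.95%). The same held from −1 to 0 (5.37% against 10.3%), 0 to 1 (14.9% against 17.7%) and 1 to 2 (19.5% against 21.1%). From 2 to 3 it was larger (22.5% against 20.4%).

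**Figure D4:**
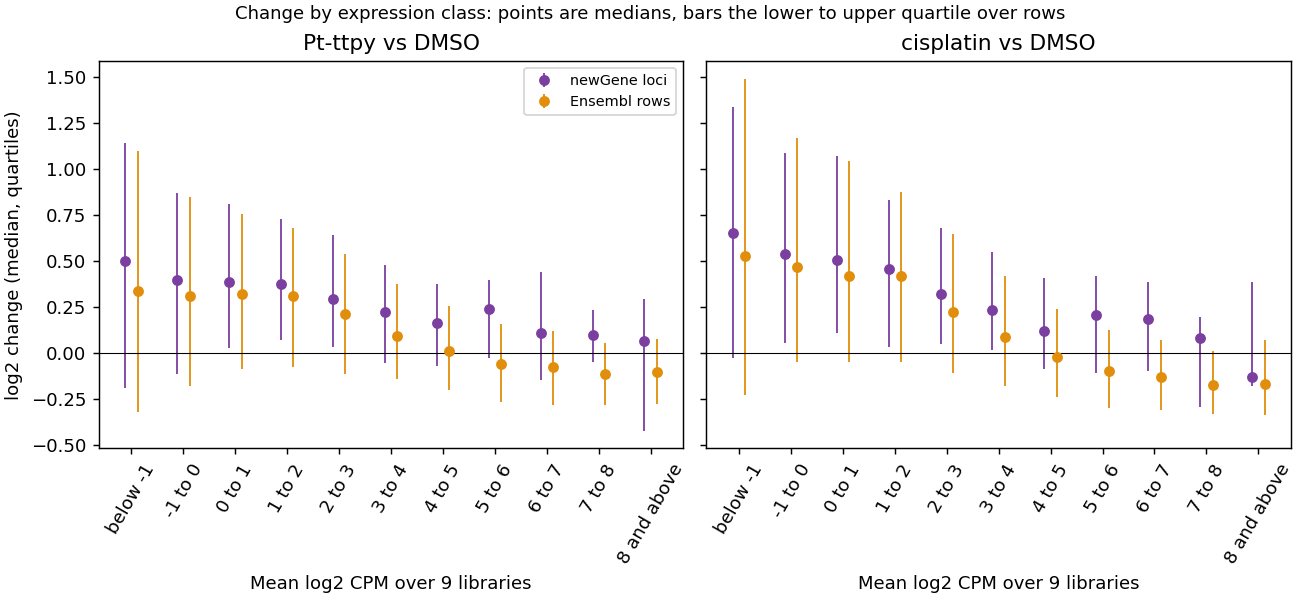
Median log2 change (points) with lower and upper quartiles over rows (bars) for newGene loci and Ensembl rows, by class of mean log2 CPM, for each drug against DMSO. Both kinds of row decline towards the right, and from the class 5 to 6 up to 7 to 8 the loci stay above 0 while the Ensembl rows are below it. The last classes hold only 5 and 7 loci.

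The loci parted from Ensembl rows among the better covered rows. In the class from 3 to 4, with 163 loci, 15.3% were called higher and 0 lower with Pt-ttpy. The 1273 Ensembl rows of that class had 8.72% and 3.06%. With cisplatin it was 22.7% and 1.84%, against 14.8% and 4.79%. In the class from 4 to 5 the 103 loci had a median log2 change of 0.16 with Pt-ttpy and 0.12 with cisplatin, against 0.01 and −0.02 for 2061 Ensembl rows. With Pt-ttpy 11.7% were called higher and 1.94% lower, against 6.26% and 5.39% of the Ensembl rows. With cisplatin these shares were 21.4% and 2.91%, against 10.6% and 8.54%. The gap was wider in the class from 5 to 6, where the 56 loci had a median log2 change of 0.24 with Pt-ttpy and 0.20 with cisplatin, against −0.06 and −0.10 for 2691 Ensembl rows. In that class 13 loci (23.2%) were called higher with Pt-ttpy and 0 lower, against 5.24% and 10.5% of the Ensembl rows. With cisplatin 14 loci (25%) were called higher and 0 lower, against 8.47% and 14.9%. In the class from 6 to 7, with 24 loci, 5 were called higher (20.8%) and 2 lower (8.33%) with Pt-ttpy, against 3.55% and 12.3% of the Ensembl rows. With cisplatin 7 were higher (29.2%) and 3 lower (12.5%), against 5.71% and 17.1%. Above that lay 12 loci only, in classes of 5 and 7. The classes above 4 were split after the data had been seen, since the Ensembl rows above 4 reach far higher levels than the loci.

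The same contrast was read library by library. For the 195 loci at a mean log2 CPM of 4 or more, the median deviation from the DMSO mean, less that of Ensembl rows weighted to the same classes, was 0.03, −0.09 and 0.03 in DMSO 1, 2 and 3. With cisplatin this quantity was 0.24, 0.21 and 0.16, and with Pt-ttpy it was 0.31, 0.13 and 0.11, in the order of the replicates. All treated libraries were above the DMSO libraries, and Pt-ttpy 1 was highest. The DMSO libraries make up the baseline, so their values lie near 0 by construction. All treated values share that baseline and are not independent readings. Over all 2167 loci the same quantity, in the 7 classes, was 0.00, −0.03 and 0.03 with DMSO, 0.07, 0.01 and 0.01 with cisplatin and 0.11, −0.01 and 0.03 with Pt-ttpy, so these groups overlapped.

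**Figure D5:**
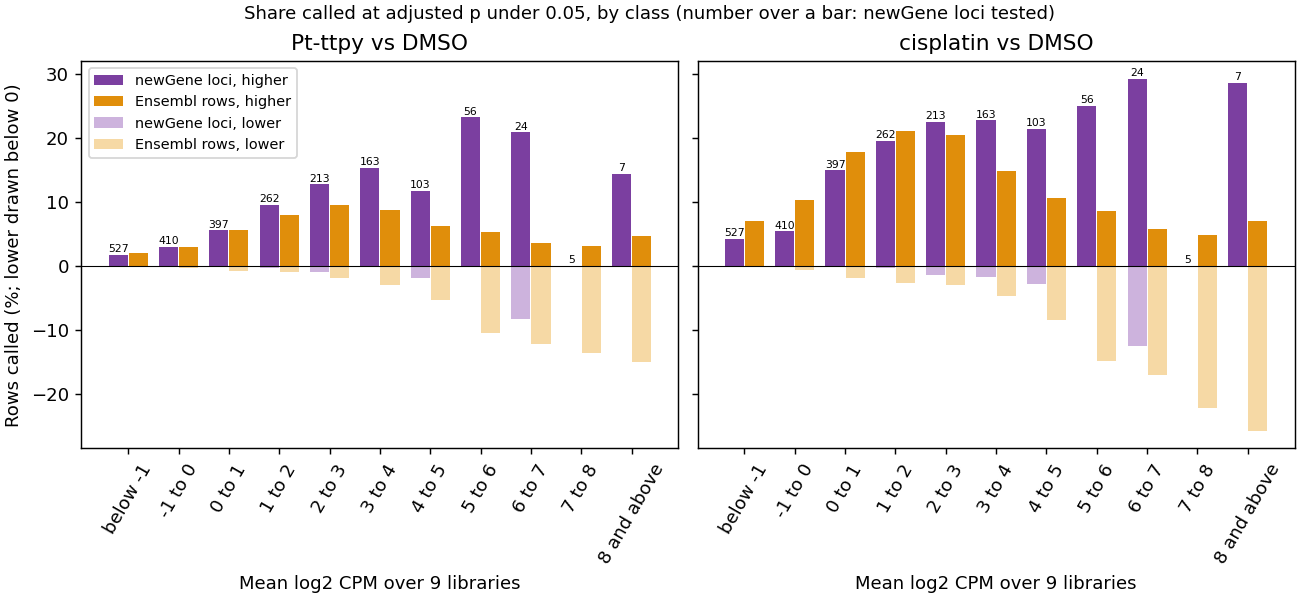
Percent of rows called higher (upward bars) and lower (bars below 0) at an adjusted p under 0.05, by class of mean log2 CPM, for newGene loci and Ensembl rows, with the number of loci tested above each upward bar. In the class 5 to 6, 23.2% of loci are called higher with Pt-ttpy against 5.24% of Ensembl rows. Below 1 the shares called higher with Pt-ttpy are alike, and those with cisplatin are smaller for the loci.

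The loci were about as reproducible as Ensembl rows of like level. The median SD between replicates on the log2 CPM scale was 0.83 for loci and 0.93 for Ensembl rows in the weakest class, 0.35 and 0.37 in the class from 1 to 2, and 0.22 and 0.23 from 3 to 4. At 4 and above it was 0.19 and 0.16.

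The running numbers are the one further label of a locus, and they run from 1 to 9092. Between loci 1 number apart (624 pairs) the median correlation of log2 CPM over the 9 libraries, each centred on its group mean, was 0.08. It was 0.07 between loci 2 numbers apart, 0.10 between loci 5 apart and so no lower than at 1 apart, and between loci 100 tested loci apart (2067 pairs) it was 0.05. All pairs share the same 9 libraries. Of the 67 loci called higher with Pt-ttpy that had a tested neighbour by number, 12 (17.9%) had a neighbour called higher too, against 61 of 992 (6.15%) among the loci not called higher. With cisplatin it was 29 of 129 (22.5%) against 114 of 930 (12.3%). Whether neighbouring numbers are neighbouring loci is not stated, and these shares were not tested.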

How the data were processed

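Total RNA of A2780 cells was made into libraries with a SMARTER mRNA-Seq kit, per the labels. The authors deposited 1 table of raw counts per gene or locus for 9 libraries (3 DMSO, 3 cisplatin, 3 Pt-ttpy), and 0 columns belong to other samples. The submitters' processing notes name the genome build GRCh38. For the aligner, the counting program, its use of strand and the finding of newGene loci, the method is not given in the sources used here. Without strand, a locus and a gene that overlaps it cannot be told apart.

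Counts were analysed in R 4.3.3 with edgeR 4.0.16: filterByExpr (minimum count 10), TMM factors, robust quasi-likelihood fits with 1 mean per group over 9 libraries, and Benjamini-Hochberg adjustment over all 15558 rows tested. Adjusted p-values of loci are from this test, and calls are at 0.05. CPM use TMM library sizes, fitted log2 changes a prior count of 0.125 and log2 CPM per library a prior count of 2. A locus was named if it was among the 2 largest rises or falls of a comparison (called, at least 1 CPM in the higher group, no overlap) or among the 5 loci with the most counts. Shares were tested by exact permutation. Intervals are exact binomial. Alternatives included DESeq2 1.42.0, limma-voom (limma 3.58.1), other scalings and filters, and each library left out. The fit was tested on simulated counts. Replicates of a group differed by more than sampling noise in all 9 pairs (chi-square per degree of freedom of 9.21 or more). The loci and lists were chosen with earlier results of these data known.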

Additional observations from a re-analysis of the deposited data

How the results depend on the processing

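The loci called higher numbered 151 with Pt-ttpy and 284 with cisplatin against DMSO, with 9 and 14 called lower, and 0 and 2 for Pt-ttpy against cisplatin. Leaving out 1 library gave 33 to 214 higher and 3 to 18 lower for Pt-ttpy against DMSO, 178 to 246 and 6 to 13 for cisplatin, and 0 to 1 and 0 to 4 between the drugs. Without both DMSO 2 and cisplatin 2 there were 283 higher and 24 lower for Pt-ttpy, and 5 and 14 between the drugs. DESeq2's Wald test called 226 and 17 for Pt-ttpy against DMSO, and 2 and 14 between the drugs. With only the 6 libraries compared, cisplatin had 164 and 7. At an adjusted p under 0.01 there were 29 and 3 for Pt-ttpy, 98 and 3 for cisplatin and 0 between the drugs. With at least 2-fold there were 100 and 5, 191 and 5, and 1 lower between the drugs. The non-robust fit called 1 lower between the drugs, and the fit with no filter 1 higher and 3 lower. Upper-quartile factors gave 169 and 6 for Pt-ttpy. The share called over all rows is not given for these fits, so whether it moved with the counts of the loci is not shown. The cause of these differences was not tested.

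With the replicate number as a block, 191 loci were higher and 12 lower for Pt-ttpy, 288 and 16 for cisplatin, and 0 and 7 between the drugs. Same-numbered DMSO and cisplatin samples had correlated deviations of 0.10, 0.22 and 0.08 for numbers 1, 2 and 3, and those with Pt-ttpy had −0.04 to 0.04. A sample correlated best with its own number in 11 of 18 cases, a hint from the data and not the design. Not every pair passed 0.1 and the labels name no shared batch, so the samples were not treated as paired.

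The share difference kept its direction in every setting run. Of the values of named loci under the alternatives, 781 kept their side of the threshold, 70 lost a call and 5 gained one. No called value changed sign, but 13 of the 781 did, all of them uncalled in both fits. With few counts in most loci, smaller changes are not detectable at this depth.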

Other observations

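The 2362 newGene rows outside the rule were nearly empty. Of these, 263 had 0 counts in all 9 libraries, 69 had at least 1 count in every library, and the median total over the 9 libraries was 10 counts. Together they held 0.00866%, 0.00932% and 0.00951% of the counts in DMSO 1, 2 and 3, 0.0145%, 0.0217% and 0.013% in cisplatin 1, 2 and 3, and 0.0136%, 0.0128% and 0.0117% in Pt-ttpy 1, 2 and 3. All 6 treated libraries were above the 3 DMSO libraries, and cisplatin 2 was highest. In the weakest class, below −1, tested Ensembl rows also had medians above 0 against DMSO (log2 0.33 with Pt-ttpy, 0.52 with cisplatin). The highest single count among the newGene rows outside the rule was 118, for newGene_912 in DMSO 2. In that row Pt-ttpy 2 had 26 counts and the other 7 libraries had 0. This row was picked after its values had been seen.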
